A study of Mus musculus with 4 samples.

Results

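The genes studied here carry cytokine and BCR-ABL1 signals in B-cell precursors. They are 10 genes of 20548 protein-coding genes that could be placed on mouse build mm9: Il7r, Jak1, Jak2, Stat5a, Stat5b, Abl1, Bcr, Gab2, Crkl and Lyn. They were chosen by name for their role, and each was described by the peaks that overlap its gene body or the 20 kb on either side. Together these windows held 81 PHF6 peaks, 46 H3K27ac peaks and 11 H3K27me3 peaks, each peak counted once, of 77749, 32388 and 5616 peaks in the whole lists.

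The data come from chromatin immunoprecipitation with sequencing (ChIP-seq) of mouse pre-B acute lymphoblastic leukemia cells of strain C57BL/6J, all of them overexpressing BCR-ABL1 and p19 null. Antibodies to PHF6, to histone H3 acetylated at lysine 27 (H3K27ac) and to H3 trimethylated there (H3K27me3) gave 1 library each, and the study's input library was not analysed here. The medium given in the labels contains serum and names no cytokine. How BCR-ABL1 was delivered, how many clones or cultures were used and whether PHF6 was altered are not given in the labels, and no cells without BCR-ABL1 enter, so the values describe 1 transformed state.

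Interleukin-7 drives the growth of normal B-cell precursors: its receptor activates the kinases JAK1 and JAK3, which phosphorylate the transcription factor STAT5. The fusion kinase BCR-ABL1 also activates STAT5 and works through adaptor proteins such as GAB2 and CRKL, and cells that carry it can grow without the cytokine. H3K27ac lies at active promoters and enhancers, H3K27me3 is laid down by Polycomb repressive complex 2, and PHF6 is a PHD-finger protein of the nucleus that is mutated in some leukemias.

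The summit height printed for each peak is the pileup that the authors deposited with it. Heights can be ranked within 1 antibody but not compared between antibodies, and with 1 library per antibody no difference has a replicate check or a test. A gene start counted as marked when a peak overlapped the stretch within 1 kb of it. Starts are those listed by RefSeq. Lyn and Gab2 have none in the promoter set used, and no strand is given for them. They were taken as forward-strand genes that start at the lower end, which is the end with H3K27ac and PHF6 peaks. Within 1 kb of the upper end neither gene had an H3K27ac or PHF6 peak, while Lyn had an H3K27me3 peak there. The start values of both genes therefore rest on the orientation taken. The background for starts is the 16519 placed genes with a listed start. Gene positions were moved from GRCm38.p6 to mm9 by a local offset. The distance between the lower and upper quartile of the offsets from single nearby starts was 37 to 368 bp at the 10 genes. Offsets enter this range only if they match within the tolerance, which limits their spread. The 37 bp belongs to Il7r, placed by 4 matched summits from a window of 1000 kb to each side. Lyn, with the 368 bp, was also placed by 4 matched summits, the fewest allowed. Single matches could lie further out, since a tolerance of 500 bp was allowed. Distances to a gene start or end are uncertain by at least that much, while peak positions and distances between summits do not depend on the offset.

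The labelled cell type was checked against marker genes. Of 11 pre-B markers, 8 had H3K27ac at a start, among them Vpreb1 and Igll1, the surrogate light chain genes, both at a height of 329. Rag1, Rag2 and Dntt, which act in antigen receptor gene rearrangement, had none. H3K27ac lay at a start of 0 of 7 myeloid, 2 of 7 T-cell (Lat and Cd2), 1 of 4 erythroid (Klf1) and 2 of 3 stromal markers (Thy1 and Col1a1). Where the promoter set lists no start, as for 2 pre-B and all 3 stromal markers, either gene end was used.

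All 10 signalling genes had H3K27ac at a start, where 61.3% of all genes did. PHF6 lay at a start of 9 of them, against 66.8% of all genes, and Il7r was the gene without it. Both together lay at 9 of the 10 starts, against 55.5% of all genes. H3K27me3 lay at a start of 0 of the 10, against 3.51% of all genes, so its absence there was the common state. In the gene body plus 20 kb, all 10 genes had at least 1 PHF6 peak and at least 1 H3K27ac peak, as did 86.1% and 76.3% of all genes. H3K27ac of height 200 or more was found at 8 of the 10 starts, beside 37.8% of all genes; Il7r and, just under that height, Stat5a were the others. The median height over the 10 genes was 313.5 for H3K27ac and 40.5 for PHF6, beside medians of 40 and 26 over all genes, genes without a peak counted as 0. With Lyn and Gab2 left out, H3K27ac lay at a start of 8 of 8 genes, PHF6 at 7, both at 7, H3K27me3 at 0, and H3K27ac of height 200 or more at 6.

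**Figure D1:**
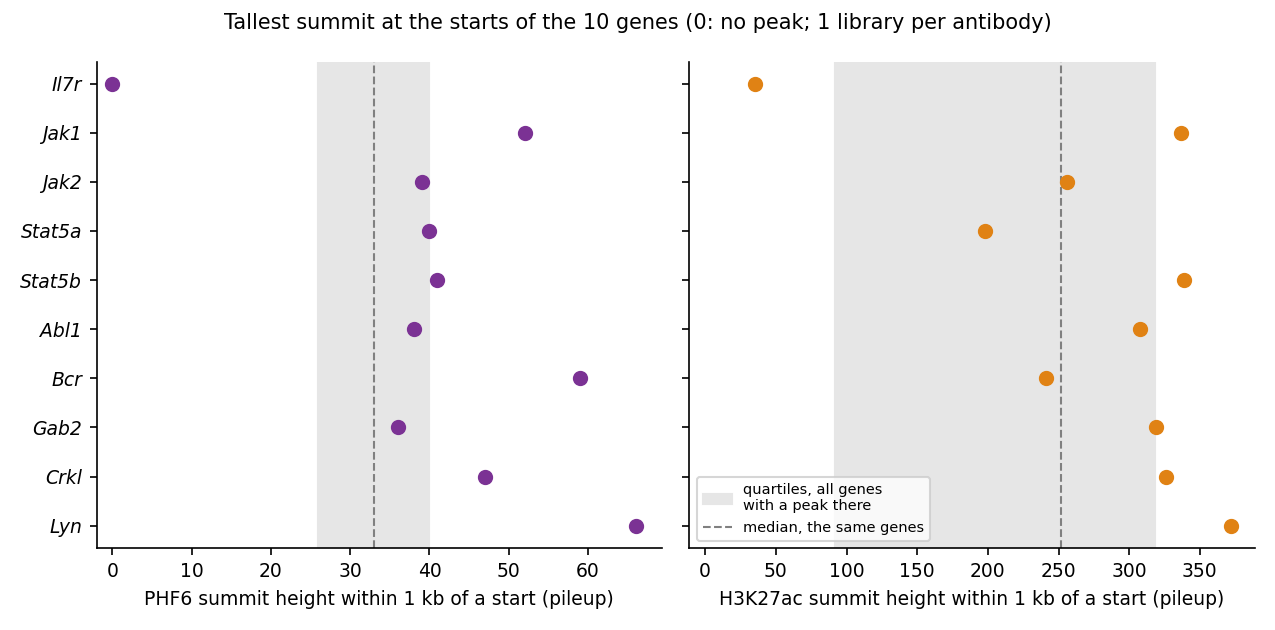
Summit height (pileup) of the tallest PHF6 peak (left) and H3K27ac peak (right) within 1 kb of a start for each of the 10 genes, 1 library per antibody. Grey bands and dashed lines give the quartiles and median of all genes with a peak at a start; Il7r has a PHF6 value of 0 and an H3K27ac height of 35, below both bands, while Lyn reaches 66 and 372, above both.

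Of the 8 genes with a listed start, Il7r had the lowest CpG content before it. Over the 250 bases before the start, Il7r had 1 CG dinucleotide, a GC content of 44.0% and a ratio of observed to expected CpG of 0.0844, at percentile 12.7 of 32851 listed starts. The ratio was 0.851 for Jak1, 0.908 for Jak2 and 0.806 for Crkl, where the median of all listed starts was 0.373. Bcr had 0.984 and the 2 listed starts of Abl1 had 0.645 and 0.614. The listed starts differed within a gene for the STAT5 pair: Stat5a had 0.243 at its first and 0.757 at its second start, and Stat5b had 0.988 at its first and 0.376, with a GC content of 46.4%, at the one further into the gene. The 4 stretches printed here contrast Il7r with 3 CpG-rich starts and are the part of those 250 bases that lies outside the annotated gene. They are RefSeq sequences of build GRCm38.p6, 5′ to 3′ on the strand of the gene, at chr15:9529942-9530126 (minus strand), chr4:101265283-101265473 (minus), chr19:29251553-29251802 (plus) and chr16:17451735-17451984 (plus). Capitals mark CG dinucleotides and, in Il7r alone, also a match to TTCNNNGAA.
Il7r: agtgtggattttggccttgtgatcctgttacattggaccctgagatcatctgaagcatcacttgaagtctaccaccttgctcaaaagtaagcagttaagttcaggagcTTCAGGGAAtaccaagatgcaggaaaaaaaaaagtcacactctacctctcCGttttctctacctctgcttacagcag
Jak1: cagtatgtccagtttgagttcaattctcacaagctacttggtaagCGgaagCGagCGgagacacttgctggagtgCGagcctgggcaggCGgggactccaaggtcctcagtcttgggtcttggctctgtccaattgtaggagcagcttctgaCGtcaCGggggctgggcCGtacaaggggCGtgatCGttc
Jak2: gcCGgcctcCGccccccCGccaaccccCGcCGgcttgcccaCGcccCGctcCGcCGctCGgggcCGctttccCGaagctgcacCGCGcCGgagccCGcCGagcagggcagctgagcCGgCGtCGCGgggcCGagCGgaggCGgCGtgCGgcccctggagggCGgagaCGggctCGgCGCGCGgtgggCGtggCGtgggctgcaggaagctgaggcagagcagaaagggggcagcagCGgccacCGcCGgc
Crkl: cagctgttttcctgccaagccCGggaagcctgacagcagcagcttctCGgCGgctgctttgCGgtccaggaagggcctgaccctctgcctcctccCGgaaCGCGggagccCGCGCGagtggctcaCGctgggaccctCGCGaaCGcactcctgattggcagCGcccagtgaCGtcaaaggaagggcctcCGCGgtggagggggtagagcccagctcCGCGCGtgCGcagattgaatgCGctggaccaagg

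4 known motifs were looked for in these 250 bases on both strands. TTCNNNGAA, the pattern bound by STAT5 and other STAT proteins, matched at 1 of the 11 listed starts of the 8 genes, that of Il7r, where it begins 142 bases before the start. Of all listed starts, 7.02% hold it. The EBF1 palindrome, CCGGAAG, a pattern of ETS factors, and the E-box CACGTG matched at 0 of the 11 starts, and 0.779%, 6.91% and 6.02% of all starts hold them. A match gives the letters in this window and does not show that a protein was bound.

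Il7r encodes the receptor chain that binds interleukin-7. Its only H3K27ac peak at the gene, chr15:9457535-9459872, had a height of 35, and its summit lay about 1.17 kb inside the gene from the start. That height was at percentile 49.3 of all genes, while each of the other 9 genes stood at percentile 62.0 or higher. No PHF6 peak touched it. The only PHF6 peak in the window, chr15:9471779-9472666, had a height of 25 and lay 12.4 kb upstream of the start. A second H3K27ac peak of height 23 lay 38.4 kb downstream of the start, beyond the gene, and 1 H3K27me3 peak of height 14, chr15:9435868-9436939, lay at the 3′ end of the gene. By height at the start Il7r was the lowest of the 10 in both lists. By peaks per 10 kb of window it was not: Jak1, Jak2 and Lyn had fewer PHF6 peaks than Il7r (0.157), and Jak1, Jak2, Gab2, Crkl and Lyn had fewer H3K27ac peaks (0.314 at Il7r). Of the 10122 genes with H3K27ac at a start, 957 (9.45%) had no PHF6 there. Those genes include many with taller H3K27ac than Il7r. Of all H3K27ac peaks with heights of 20 to 49, the class of the Il7r peak, 57.1% (6658 of 11658) held PHF6. Lack of PHF6 was thus common at this height.

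Other genes of the same receptor system, given here by role after their values were seen, did not all bear the same marks. Il2rg, the shared gamma chain that completes the interleukin-7 receptor, had an H3K27ac height of 22 at its start and no PHF6. Crlf2, the chain that pairs with IL7R to form the TSLP receptor, had an H3K27ac height of 355 and a PHF6 height of 32. Jak3, the kinase bound to the gamma chain, had heights of 310 and 41. Both chains of the interleukin-7 receptor therefore had low H3K27ac without PHF6 at the start, and their kinases had tall H3K27ac with PHF6.

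Jak1, a kinase shared by many cytokine receptors, had at its start a PHF6 peak of height 52, chr4:100936950-100938207, inside an H3K27ac peak of height 337, chr4:100936923-100938541, and the summits were 12 bp apart. The PHF6 height was at percentile 97.3 of all genes. Its gene body held just 1 further PHF6 peak (height 17) and 1 further H3K27ac peak (height 18), and these did not overlap. It also held 4 H3K27me3 peaks, as many as any of the 10 genes. They had heights of 33, 21, 18 and 11, and those of 18 and 11 lay within 3 kb of the 3′ end.

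Jak2, the kinase of receptors such as those for erythropoietin and growth hormone, had at its start an H3K27ac peak of height 256, chr19:29325202-29327497, and a PHF6 peak of height 39, chr19:29325271-29327130. Here the summits lay 646 bp apart, the widest gap among the 9 starts that had both. That PHF6 peak was the only one in the whole window of Jak2. An H3K27me3 peak of height 18, chr19:29332560-29334275, lay 6.58 kb downstream of the start.

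Stat5a and Stat5b, the paralogs through which interleukin-7 and BCR-ABL1 signal, lie side by side and their windows share peaks. At the start of Stat5a the H3K27ac height was 198 and the PHF6 height 40, at chr11:100721163-100723229 and chr11:100721354-100723221, with summits 8 bp apart. At the start of Stat5b they were 339 and 41, at chr11:100710782-100713234 and chr11:100710975-100713194, with summits 70 bp apart. The 2 genes thus had nearly equal PHF6 and a taller H3K27ac summit at Stat5b. A second listed start of Stat5b, 28.0 kb further into the gene, had no peak of any list.

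Between them the 2 STAT5 genes carried dense PHF6. The window of Stat5a held 16 PHF6 peaks and that of Stat5b 18, or 2.43 and 1.52 per 10 kb, where the median over all genes was 0.459. Joining H3K27ac peaks at gaps of up to 12.5 kb gave 1 region over both starts, chr11:100710782-100737292, of 4 peaks with a summed height of 587. It ranked 820 of 17585 such regions by summed height, the highest rank at any of the 10 genes. H3K27me3 was found on the Stat5a side alone, with 4 peaks: 1 of height 19 at the 3′ end of Stat5a, chr11:100745751-100746690, and 3 of heights 14 to 18 in the flank beyond it. The Stat5b window held 0.

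Abl1, the kinase gene that supplies the catalytic part of the fusion, had tall H3K27ac both at its listed starts and at the outer end of the gene. At the listed starts lay an H3K27ac peak of height 308, chr2:31614830-31617439, with a PHF6 peak of height 38, chr2:31614918-31616268, and summits 217 bp apart. At the outer end of the gene, 71.7 kb upstream, a second H3K27ac peak reached 310, chr2:31543335-31545184, with PHF6 of height 31 and summits 6 bp apart. The listed starts and this upstream end were thus alike in H3K27ac height. The start of the neighbouring gene Exosc2, in the same window, had an H3K27ac peak of height 230 without PHF6, the only H3K27ac peak of height 200 or more in all windows that lacked it. The 3′ part of Abl1 and its downstream flank held 7 joined H3K27ac peaks with a summed height of 248, chr2:31655492-31680345.

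Bcr, which supplies the other part of the fusion, had a PHF6 peak of height 59, chr10:74522029-74525580, and an H3K27ac peak of height 241, chr10:74522028-74525677. The peaks nearly coincided in extent, but their summits lay 606 bp apart. Bcr stood at percentile 99.0 of all genes for PHF6 and 67.8 for H3K27ac. Its window held 19 PHF6 peaks, 16 of them without H3K27ac, and 9 H3K27ac peaks, 6 of them without PHF6. The lists thus met at the start and mostly lay apart within the gene. The endogenous Abl1 and Bcr windows held 0 H3K27me3 peaks. Reads from a BCR-ABL1 copy that matches these genes cannot be told apart from theirs in the lists.

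Gab2, an adaptor that links BCR-ABL1 to the PI3 kinase and RAS pathways, had at its start a PHF6 peak of height 36, chr7:104229453-104231686, and an H3K27ac peak of height 319, chr7:104229440-104232054, with summits 334 bp apart. Inside the gene, 129 kb from the start, an H3K27ac peak of height 62, chr7:104356914-104361449, had no PHF6 peak within 63511 bp of its summit. Beyond the 3′ end lay 6 of its 10 PHF6 peaks, of heights 19 to 32.

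Crkl, an adaptor bound and phosphorylated by BCR-ABL1, had a PHF6 peak of height 47, chr16:17451437-17452982, and an H3K27ac peak of height 326, chr16:17451290-17453989, with summits 70 bp apart. The gene body held no further peak of any list. Its remaining 3 PHF6 peaks and 1 H3K27ac peak lay past the 3′ end, around the start of the neighbouring gene Aifm3 and beyond.

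Lyn, a Src family kinase of B cells that acts beside BCR-ABL1, had the tallest summits of the 10 genes in both lists. Its PHF6 peak reached 66, chr4:3604871-3606513, at percentile 99.5 of all genes. Its H3K27ac peak reached 372, chr4:3604512-3607558, at percentile 99.4, and the summits were 16 bp apart. The rest of the gene held 2 lower H3K27ac peaks (heights 29 and 15) and no PHF6. An H3K27me3 peak of height 42, chr4:3717251-3718426, the tallest of the 11 in these windows, lay at the 3′ end.

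**Figure D2:**
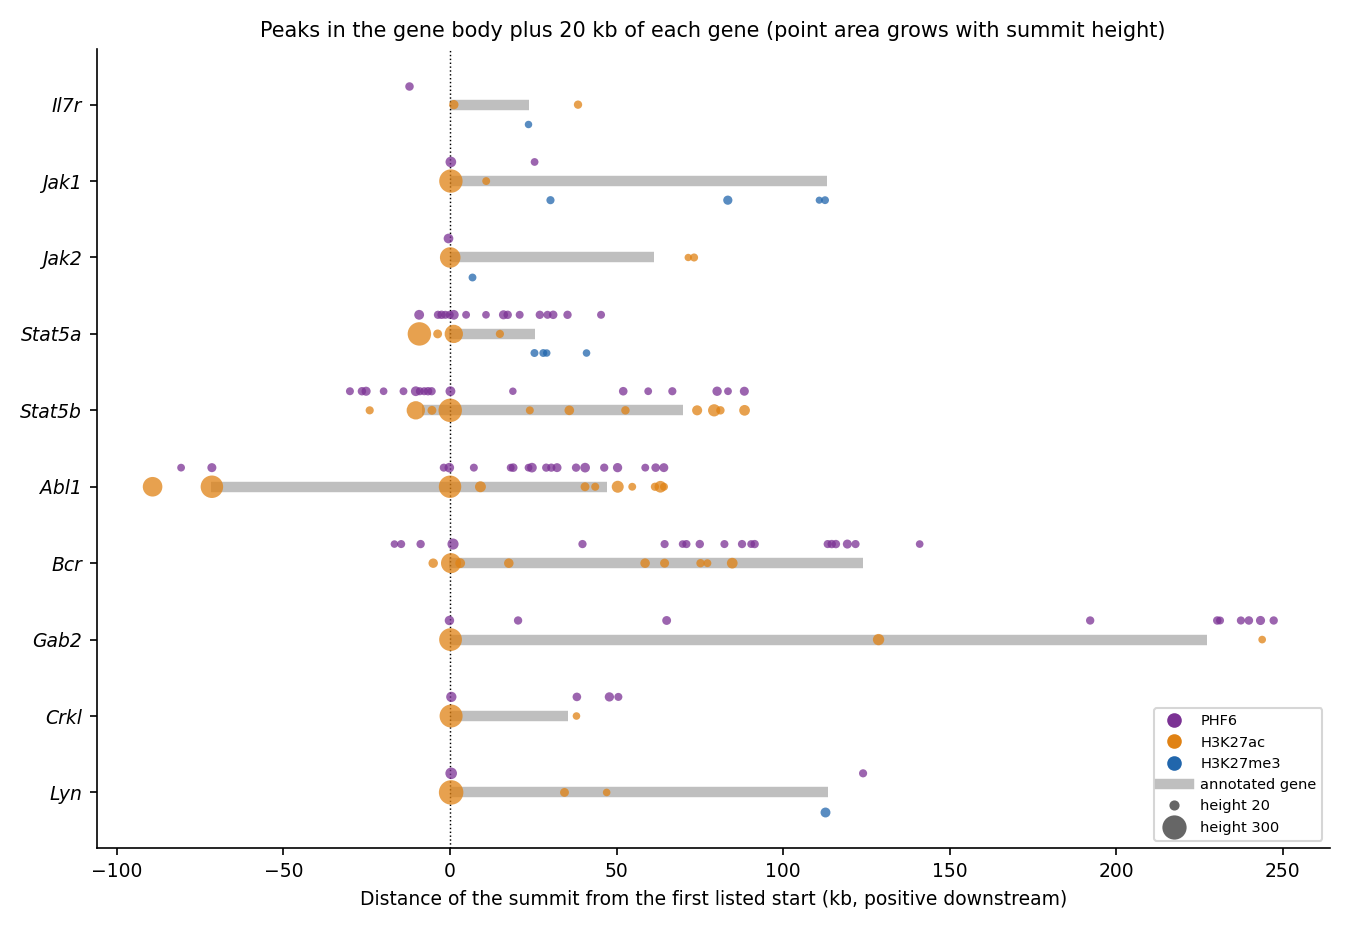
Every PHF6, H3K27ac and H3K27me3 peak in the window of each gene by the distance of its summit from the first listed start (kb, positive downstream); point area grows with summit height and grey bars are the annotated genes. Tall H3K27ac points sit at the start of every gene but Il7r, and also at the outer end of Abl1, at Exosc2 in the Abl1 window (230) and, in the shared windows of Stat5a and Stat5b, at the start of the other STAT5 gene; PHF6 peaks are dense along Stat5a, Stat5b, Abl1 and Bcr, and H3K27me3 appears in 5 of the 10 windows.

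The density of PHF6 along the gene differed widely among the 10 genes. The windows of Stat5b, Abl1 and Bcr held 18, 19 and 19 PHF6 peaks, and those of Il7r, Jak1, Jak2 and Lyn held 1, 2, 1 and 2. Per 10 kb this ran from 0.0987 at Jak2 to 2.43 at Stat5a. The surroundings differed likewise: over the 500 kb on either side there were 218 PHF6 peaks per Mb at Abl1, 165 at Stat5b, 150 at Stat5a, 79 at Crkl and 77 at Bcr. Gab2 had 28, Lyn 26, Jak2 21, Jak1 18 and Il7r 7, and the median over all genes was 40. H3K27ac peaks per Mb in the same stretches were lowest at Jak1 (6) and Il7r (7) and highest at Stat5a (77) and Stat5b (71). These regional densities were looked at after the counts in the windows had been seen, and how far they account for those counts was not tested.

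Within the windows the share of PHF6 peaks on H3K27ac was highest at starts. Of the 81 PHF6 peaks, 24 (29.6%, 95% exact binomial interval 19.99 to 40.8) overlapped H3K27ac, beside 30.3% in the whole list. Of the 11 PHF6 peaks at the genes' own starts, 10 overlapped H3K27ac, and of the 5 at starts of other genes 4 did. Both marks at a start were the common state: counted by gene, 9165 of all 11035 genes with PHF6 at a start also had H3K27ac at a start. This count by gene did not require the peaks to overlap or to lie at the same start. Conversely, 9.45% of all genes with H3K27ac at a start had no PHF6 there. For the whole lists, shares of peaks by place were not computed. Of the 40 PHF6 peaks in gene bodies, 6 overlapped H3K27ac (15.0%, 5.71 to 29.8), and of the 19 in downstream flanks 3 did. The overlapping PHF6 and H3K27ac peaks at the outer end of Abl1, which is not a listed start, are counted in the gene body in both lists. The 57 PHF6 peaks without H3K27ac had heights of 14 to 39. From the other side, 27 of 46 H3K27ac peaks (58.7%, 43.2 to 73.0) held PHF6, beside 71.7% in the whole list, with 9 of 10 at own starts, 5 of 8 at starts of other genes, 7 of 19 in gene bodies, 5 of 8 in downstream flanks and 1 of 1 upstream. Summits of overlapping peaks lay a median of 108 bp apart, and 12 of 24 were within 100 bp. The intervals cover counting error only, and neighbouring peaks are not independent.

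PHF6 was most frequent on the tallest H3K27ac peaks. Of the 10 H3K27ac peaks of height 200 or more, 9 held PHF6, and of the 8 from 50 to 199, 5 did. Of the 19 peaks from 20 to 49, 9 held it, and of the 9 below 20, 4 did. In the whole list these 4 classes stood at 95.5%, 63.0%, 57.1% and 78.1%, so the low share below 20 in these windows (4 of 9) rests on few peaks. The H3K27ac peak inside Gab2, of height 62, was the tallest without PHF6 that was not at a start of any gene.

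**Figure D3:**
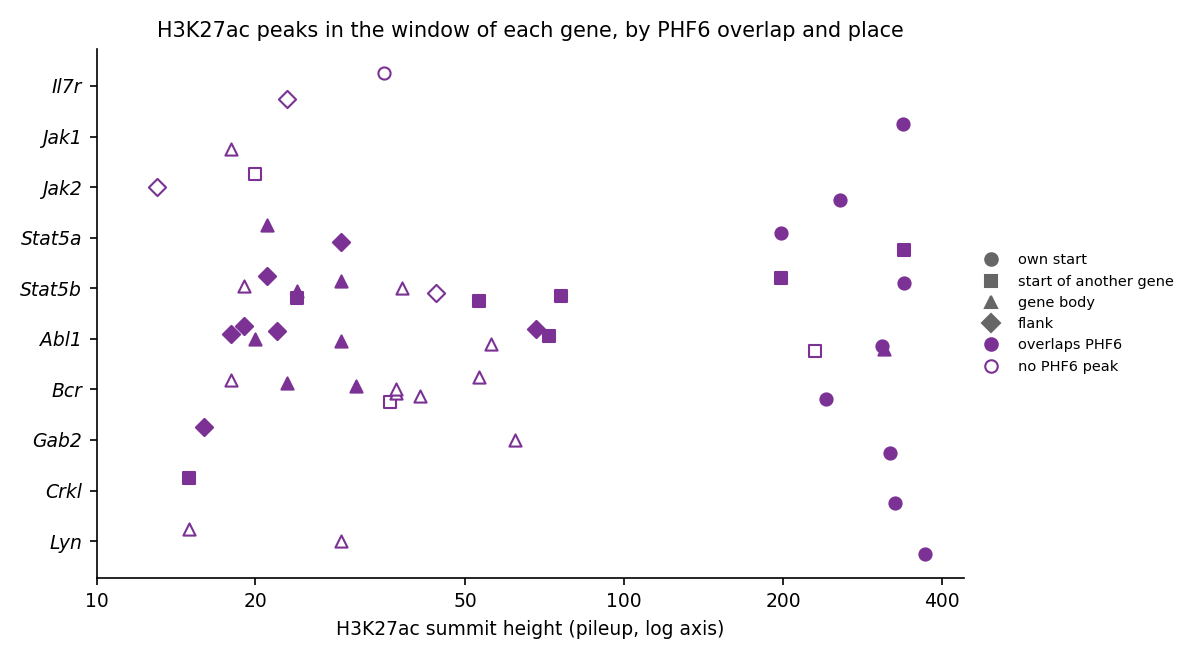
H3K27ac summit height (pileup, log axis) of each H3K27ac peak in the window of each gene, filled where a PHF6 peak overlaps and open where none does, with the marker shape giving its place; peaks shared by the Stat5a and Stat5b windows appear in both rows. Of the peaks at 200 or more, the open one at 230 is the start of Exosc2 in the Abl1 window; most peaks below 100 lie away from the genes' own starts.

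H3K27me3 was found in the windows of 5 of the 10 genes, Il7r, Jak1, Jak2, Stat5a and Lyn, where 25.7% of all genes had it. The windows of the 10 genes were long, from 63.8 to 267 kb, beside a median of 57.0 kb (quartiles 45.8 and 83.2) over all genes; the part of window length in the shares of genes with any peak in the window was not tested. The 11 peaks had heights of 11 to 42. None overlapped H3K27ac, beside 21.0% of the whole H3K27me3 list, with an exact upper limit of 28.5% for 0 of 11, and 2 overlapped PHF6, both in the flank of Stat5a. In 4 of the 10 genes, Il7r, Jak1, Stat5a and Lyn, a peak lay within 1 kb of the 3′ end, where 6.84% of all genes had one. Counted over genes with H3K27me3 in the window, this was 4 of 5, against 26.6% (1130 of 4251) of all such genes. For Lyn the 3′ end rests on the orientation taken for it. This position was noticed in these 4 genes and is given as a description.

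CpG content before the start was then set beside the marks in the whole gene set. Each gene was classed by the highest ratio among its listed starts, and a mark was counted at any of them. Genes with several starts thus had more places to be counted and to reach a high ratio, and the part of this in the shares was not tested. Among all genes with a listed start, 93.5% of those with a ratio of observed to expected CpG of 0.8 or more had H3K27ac there and 93.1% had PHF6. Among those under 0.2, the class of Il7r, the shares were 11.3% and 20.5%. Of the genes in that class that did have H3K27ac at a start, 27.1% (108 of 399) lacked PHF6, as Il7r did, against 5.77% in the class of 0.8 or more. The height of H3K27ac was not matched between the CpG classes, and its part in these shares was not tested. These classes were chosen after the value of Il7r was known.

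**Figure D4:**
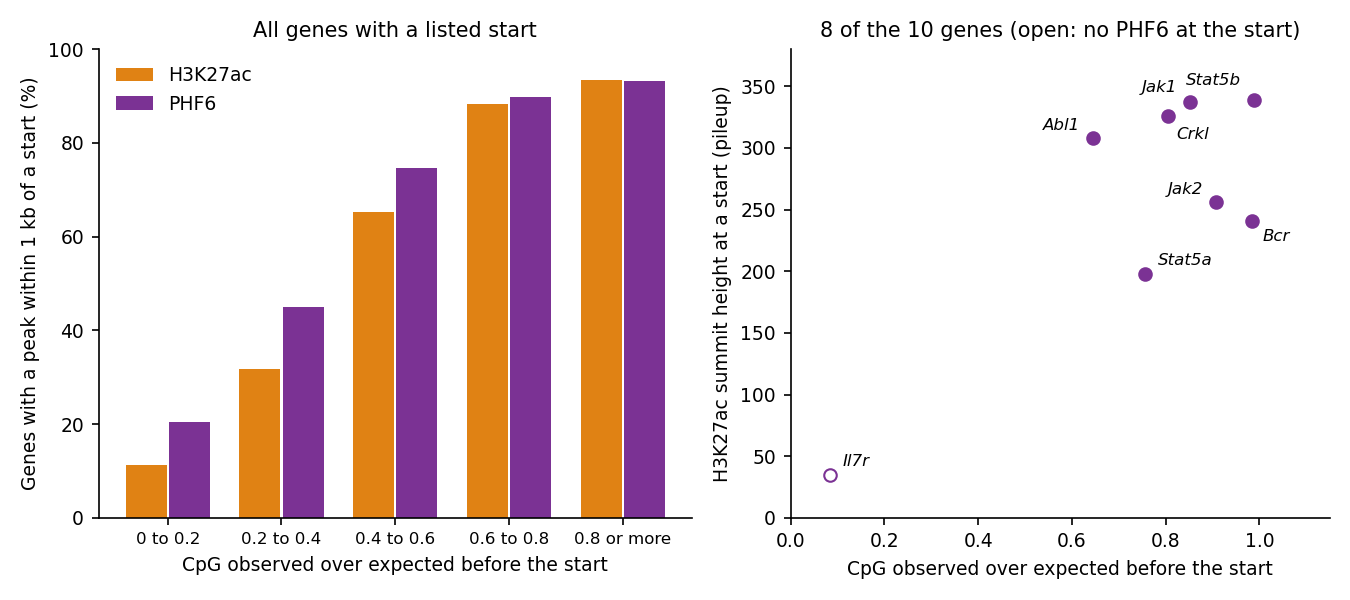
Left, share of genes (%) with H3K27ac or PHF6 within 1 kb of any listed start, by the ratio of observed to expected CpG in the 250 bases before the richest listed start of the gene. Right, H3K27ac summit height (pileup) against that ratio at the richest listed start for 8 of the 10 genes; Il7r, at 0.0844 and a height of 35, is the open point without PHF6, and the other 7 lie above 0.6.

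The wider pathway was described from a list of 81 further genes by role, of which 79 were placed; the start of 15 of these is not in the promoter set, so either gene end was used. H3K27ac lay at a start of 20 of 26 receptor genes, 13 of 13 kinase and STAT genes, 24 of 24 adaptor and effector genes and 16 of 16 inhibitor genes. PHF6 lay at 19, 11, 24 and 15 of them. Heights of 200 or more for H3K27ac were found at 10 of the 26 receptors, 7 of the 13 kinases and STATs, 21 of the 24 adaptors and 14 of the 16 inhibitors. As given for the 10 genes, the shares over all genes with a listed start were 61.3% for H3K27ac, 66.8% for PHF6 and 37.8% for H3K27ac of height 200 or more. The receptors' 10 of 26 was thus near the share of all genes. The classes were not compared by a test, and the use of either gene end gives some genes an extra place to be counted.

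The receptor genes without H3K27ac at a start included Il2ra, the interleukin-2 receptor alpha chain, Csf3r, the receptor of granulocyte colony-stimulating factor, Epor, the receptor of erythropoietin, Prlr, the prolactin receptor, and Kit, the receptor of stem cell factor. H3K27me3 lay at a start of 5 of the 79 genes (6.33%), beside 3.51% of all genes. They were Csf2rb, the common beta chain of the GM-CSF and interleukin-3 receptors (height 49), the receptor kinase gene Flt3 (20), the GTPase gene Nras (12), Socs5, of the SOCS family of inhibitors (19), and Ptpn6, which encodes the phosphatase SHP-1 (20). Each of these 5 also had H3K27ac at a start, from 32 at Flt3 to 310 at Nras. For Csf2rb and Socs5 the gene ends were used, and which end is the start was not determined.

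The tallest H3K27ac summits of the wider list included those at Ifnar2, an interferon receptor chain (372), at Socs2 and Socs4, SOCS family genes (367 each), and at Sh2b3 (366). Sh2b3, which encodes LNK, an adaptor that restrains JAK2, had a PHF6 height of 163 at its start, where the 10 genes reached 66 at most. The tall H3K27ac summits of the pathway thus included a receptor chain and several genes that restrain the signal.

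**Figure D5:**
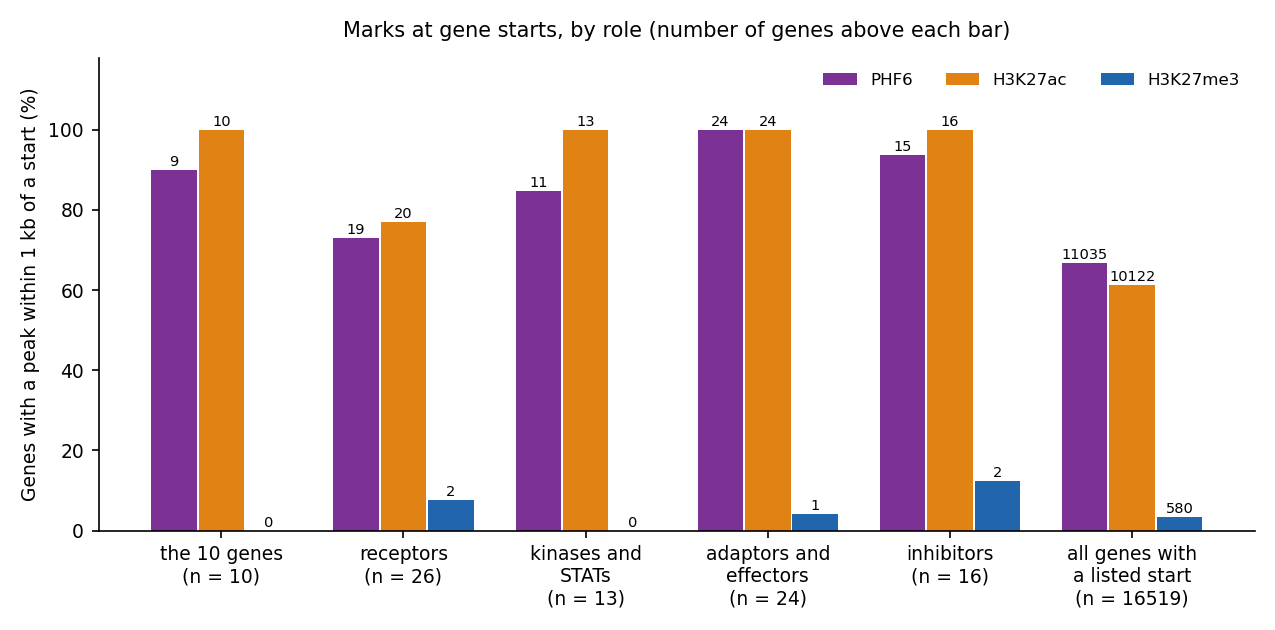
Share of genes (%) with a PHF6, H3K27ac or H3K27me3 peak within 1 kb of a start, for the 10 genes, the 4 role classes of the wider pathway and all genes with a listed start; numbers above bars are genes. H3K27ac is at 10 of 10 genes and at 20 of 26 receptors, and H3K27me3 is at no more than 2 genes in any role class.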

How the data were processed

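ChIP-seq libraries for PHF6, H3K27ac and H3K27me3 were analysed, 1 per antibody; the input library was not analysed here. Per the submitters' processing notes, Bowtie2, SAMtools and MACS 1.4.0 were used with build mm9. Each library came with a peak list, in which the score deposited by the authors for each peak was at least 60, and a summit list, in which the signal deposited by the authors is a whole-number pileup height. The names of the deposited lists mark those of PHF6 and H3K27ac, but not that of H3K27me3, as called without a local background, which limits comparison between lists. No label describes pooling. Read totals are not in the lists, so depth is unknown.

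Protein-coding gene positions and starts came from RefSeq (GRCm38.p6). They were moved to mm9 by the local offset at which H3K27ac summits of height 200 or more best matched listed starts (tolerance 500 bp, at least 4 matched summits, windows of 300 to 3000 kb to each side). The offset had to match at least 1.5 times as many summits as the best other offset. Of 21523 genes, 20548 were placed. Because H3K27ac summits set the offset, a start's match to H3K27ac is not fully independent of the placing. With the start of the gene itself left out, the 10 genes moved by at most 64 bp. Offsets from PHF6 summits of height 40 or more placed 8 of the 10 genes, at most 358.5 bp away.

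Peaks overlapped when they shared at least 1 bp. Score was used as a filter and height for ranks within 1 list. Shares carry 95% exact (Clopper-Pearson) intervals, for counting error only. No test was made, since each antibody had 1 library. The overlap and placing steps were tested on simulated data. The text names all 10 genes and, of the wider list, the genes with H3K27me3 at a start, the receptors without H3K27ac there and the 5 tallest H3K27ac summits; Il2rg, Crlf2 and Jak3 were added after their values were seen. Some genes that this rule names are not reported here. The genes and lists were chosen with earlier results of these data known. Alternatives were other start windows, flanks, overlaps, score and offset rules. Computation used pandas 2.3.3, numpy 2.4.6 and scipy 1.17.1 under Python 3.11.15, with matplotlib 3.10.9 for plots.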

Additional observations from a re-analysis of the deposited data

How the results depend on the processing

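Of 67 values recomputed under other settings, 61 stayed within 1.5 times the reported count or within the interval of the reported share. Some of these had little room to move. Leaving out peaks of regions in all 3 lists changed no value, and counting the outer gene end could only add to the counts at starts. The interval for the share of PHF6 peaks on H3K27ac was wide, from 19.99% to 40.8%. The number of PHF6 peaks in the windows, 81, became 52 with a score of at least 100, 53 with the gene body alone and 125 with 50 kb on either side. The number of H3K27ac peaks, 46, became 30 with the gene body alone and 72 with 50 kb. The number of genes with H3K27me3 in the window, 5, became 3 with the offset from PHF6 summits, which placed 8 of the 10 genes and neither Jak1 nor Jak2. The number of genes with H3K27ac at a start ran from 8 to 10 and that with PHF6 from 7 to 9, the lowest values with that same offset; requiring the summit itself within 1 kb removed Il7r from the H3K27ac count. The share of PHF6 peaks on H3K27ac ran from 26.3% to 36.5%, and that of H3K27ac peaks holding PHF6 from 55.6% to 62.5%. Leaving out each gene's own starts from the offset, and counting the outer gene end as a start, were chosen after seeing the data. No paired analysis was possible because the series has a single library for every antibody, and for that reason no replicate could be left out. Depth is unknown, so a start without a peak means that none was listed at this threshold.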

Other observations

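H3K27me3 at the 3′ end of genes was also found at many other genes. Of 4251 genes with H3K27me3 in the window, 1130 (26.6%) had a peak within 1 kb of the 3′ end and 580 (13.6%) one within 1 kb of a start. Among the 6246 genes with H3K27ac of height 200 or more at a start, 10.8% had H3K27me3 at the 3′ end and 2.51% at a start. Among the 6397 genes without H3K27ac at a start, these shares were 2.47% and 1.39%. In this list the trimethyl mark was thus listed more often at the far end of genes with tall H3K27ac at the start than of genes without it. Whether signal shared with the input library enters this was not tested.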
